A study of Mus musculus with 2 samples.

Results

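The genes described are 36 genes known from endothelial cells, the cells that line blood vessels. They were chosen by name as a gene module, with earlier results of these data known. They were looked up by symbol in the table of 22322 genes, where every one of the 36 had exactly 1 row. 6 of them (Clec4g, Oit3, Stab2, Dnase1l3, Gpr182 and Lyve1) are markers of liver sinusoidal endothelial cells, and the other 30 are pan-endothelial genes or genes of endothelial function. RNA was measured in 1 library of liver macrophages from FABP7 KO mice, a systemic knockout on a C57BL/6 background (C57BL/6 J in the methods), and in 1 library from their WT littermates. Mice of both genotypes had received 500000 MC38 cells, a mouse colon carcinoma line, into the spleen in 100 µl, and on day 10 macrophages were taken from the metastatic liver with an F4/80 positive selection kit after collagenase perfusion. How many mice each RNA sample came from is not stated in the labels or methods, and the genotype label of the KO sample reads knockdown where its title and the methods say knockout. With 1 library per genotype there is no replicate check, so no difference below has a p-value and each describes this pair of libraries.

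Sinusoidal endothelial cells form the fenestrated wall of the liver capillaries, next to the Kupffer cells, the resident macrophages of the liver, which sit on them. They clear macromolecules from blood through scavenger receptors such as stabilin and lectins. Like all endothelium they depend on the VEGF receptors and the angiopoietin receptor for growth and quiescence, and they send angiocrine signals such as Wnt2, Rspo3 and BMP2 to hepatocytes. Several genes of the module are not exclusive to endothelium. Macrophages are known to express Nrp1, Dnase1l3, Eng and, in some tissues, Lyve1, leukocytes and platelets express Pecam1, and red cells express Aqp1.

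The selected cells carried the macrophage label in both libraries. Below, FABP7 KO macrophages and WT macrophages name the F4/80-selected libraries, whichever cells a transcript came from. Adgre1, which encodes F4/80, stood at 925 FPKM in FABP7 KO and 864 FPKM in WT macrophages, and the Kupffer cell lectin Clec4f at 4156 FPKM in FABP7 KO and 3188 FPKM in WT macrophages, far above any endothelial gene of the module. FPKM are fragments scaled to gene length and to the mapped fragments of a library, so levels can be compared between genes. Fabp7 itself was at 0.69 FPKM in the FABP7 KO and 354 FPKM in the WT library. In short genes with low FPKM the values came close to whole fragments (within 0.15 for 92.0% of 138 values in the FABP7 KO and 89.2% of 139 in the WT library, where even spacing gives 30%), which put the depth at about 18000000 fragments in each. The depth was chosen among many to bring these shares near their highest, whereas 30% holds for a depth fixed beforehand. The fragments behind each gene were estimated from this depth, and intervals for a fold are exact binomial (Clopper-Pearson) 95% intervals on these estimates, which cover counting error only and not the differences between mice.

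To show where transcription of these genes starts, RefSeq promoter windows of build GRCm38.p6 (250 bases before to 50 after the start) were taken for the 19 of 36 genes that the table holds, 23 windows in all. The windows shown belong to Clec4g (chr8:3720602-3720901, minus strand), Eng (chr2:32646345-32646644, plus strand) and Aqp1 (chr6:55336049-55336348, plus strand). Each is the gene of its role with the highest FABP7 KO level among those higher by the size rule defined below that have a window. They are written 5′ to 3′, and capitals mark AGGAAG, a form of the site of ETS factors such as ERG, or its reverse complement CTTCCT. Of the 3 matches in the Clec4g window, 2 overlap.
Clec4g: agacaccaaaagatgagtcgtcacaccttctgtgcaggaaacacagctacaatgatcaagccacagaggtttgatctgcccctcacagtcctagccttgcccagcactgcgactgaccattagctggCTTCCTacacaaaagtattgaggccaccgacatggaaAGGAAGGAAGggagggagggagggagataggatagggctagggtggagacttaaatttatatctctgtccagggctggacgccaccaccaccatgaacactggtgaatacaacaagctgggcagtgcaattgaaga
Eng: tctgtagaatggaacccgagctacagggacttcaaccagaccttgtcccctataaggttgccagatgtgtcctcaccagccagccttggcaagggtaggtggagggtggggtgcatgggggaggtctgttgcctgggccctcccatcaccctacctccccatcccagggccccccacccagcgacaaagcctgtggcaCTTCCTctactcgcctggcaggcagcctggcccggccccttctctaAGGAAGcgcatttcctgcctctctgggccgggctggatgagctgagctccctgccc
Aqp1: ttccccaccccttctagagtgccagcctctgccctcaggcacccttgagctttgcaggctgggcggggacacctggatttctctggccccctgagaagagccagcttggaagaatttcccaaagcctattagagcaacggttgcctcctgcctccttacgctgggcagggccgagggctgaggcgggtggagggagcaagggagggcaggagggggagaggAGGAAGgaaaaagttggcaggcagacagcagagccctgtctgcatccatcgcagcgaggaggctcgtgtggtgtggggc
AGGAAG on either strand was present in 14 of the 23 windows (60.9%), against 35.4% of all 32851 windows in the table. By gene, it was present in 8 of 12 genes with a window that passed the size rule defined below and in 5 of 7 that did not, and these counts are too small to compare. The GATA site AGATAA, on either strand, was found in 2 of the 23 windows (8.70%, in Erg and Tek), against 11.2% of all windows. A match describes the letters and not a bound site.

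For nearly the whole module, endothelial transcripts were more abundant in the FABP7 KO library. Of the 36 genes, 34 had a higher FPKM in the FABP7 KO library and 2, Dnase1l3 and Nrp1, a slightly lower one, whose sign turned when the KO values were scaled by the median ratio of well expressed genes (factor 1.03). Of all 15199 genes above 0 in a library, 53.4% had the higher value in the FABP7 KO library, a share to set beside every such count below. Log2 ratios of FABP7 KO over WT were taken on FPKM + 1, a scale that shrinks the ratio of low genes, and a gene was counted as higher or lower when it had at least 1 FPKM in a library and its ratio reached 1, that is 2-fold on FPKM + 1, in either direction. A low gene can therefore be more than 2-fold higher in FPKM and still not pass this size rule. By this rule of size 21 of the 36 were higher, where 2.21% of all 10770 genes at 1 FPKM or more in a library were higher (238 genes), and none of the 36 was lower, where 2.95% of all genes were (318 genes). Of the 21, Flt1, Tek, Tie1, Emcn, Sox18 and Bmp2 reached 1 FPKM in the FABP7 KO library alone. They entered the count only through the library in which they were higher. The median log2 ratio over all 36 genes, low ones included, was 1.08, and that of all 10770 genes was 0.0036. Since the macrophage markers were themselves a little higher in the FABP7 KO library, the KO values were also scaled to them by a factor of 0.844. This scaling moved the median of all genes by -0.22, left 121 of 10622 genes higher (1.14%) and 454 lower, and left 16 genes of the module higher and none lower. The median log2 ratio of the 36 genes on FPKM + 1 was then 0.89, short of the size of 1 that the rule asks. Without a pseudocount or scaling, the median fold of the 36 was 3.27. In RNA from a mixture of cells, fewer cells of a type and less RNA per cell cannot be told apart.

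**Figure D1:**
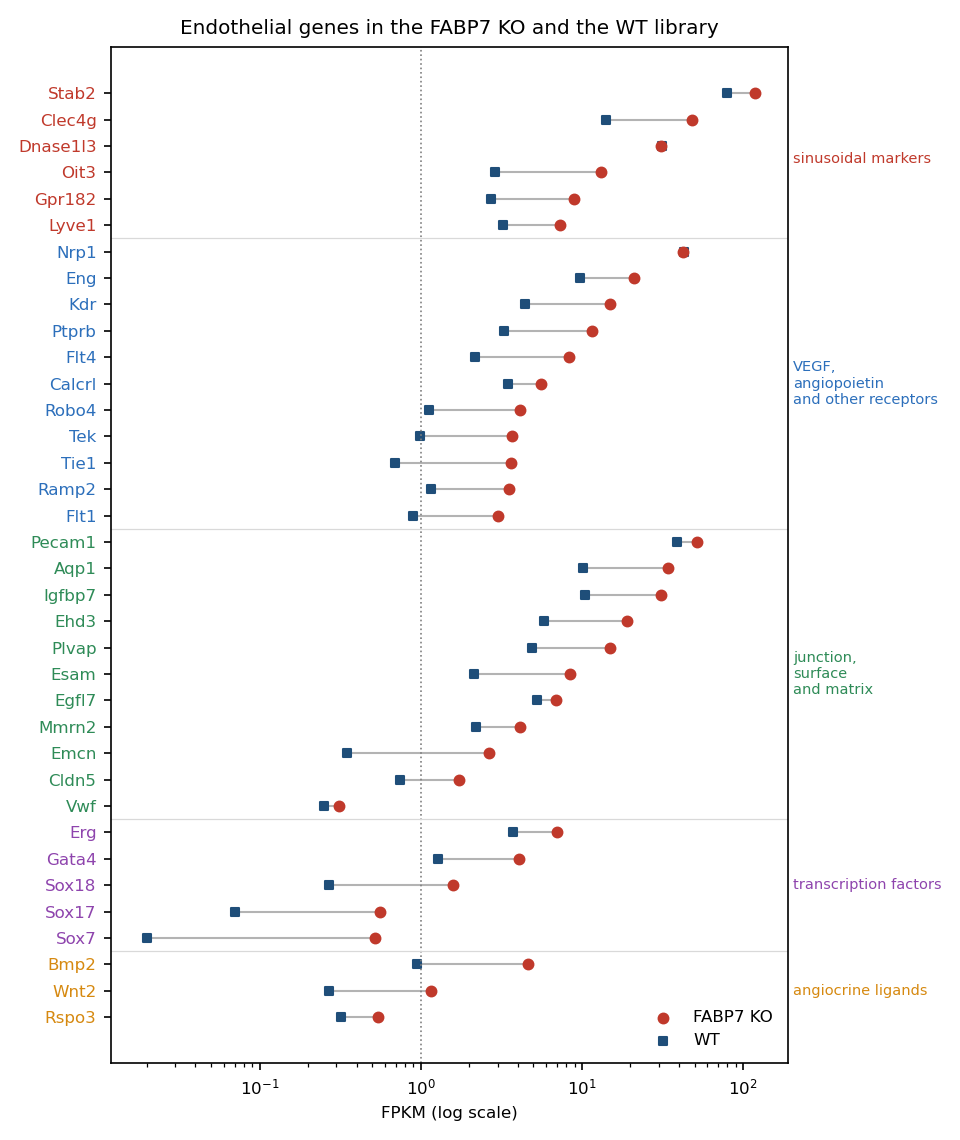
FPKM on a log axis for each of the 36 genes in the FABP7 KO (circles) and the WT library (squares), in rows grouped by role, with 1 library per genotype and a dotted line at 1 FPKM. The circle lies right of the square for 34 genes, and the pairs of Dnase1l3 (30.9 FPKM in FABP7 KO and 31.5 FPKM in WT) and Nrp1 (42.3 and 42.7 FPKM) coincide.

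Of the 6 sinusoidal markers, 3 passed the size rule, Lyve1 and Stab2 were higher without passing it, and Dnase1l3 was level. Clec4g, a C-type lectin receptor of the sinusoid, stood at 48.5 FPKM in FABP7 KO and 14.2 FPKM in WT macrophages, a log2 ratio of 1.70. Oit3, a secreted or membrane protein of sinusoidal endothelium, was at 13.1 FPKM in FABP7 KO and 2.88 FPKM in WT macrophages, and its log2 ratio of 1.87 was the highest of the module, the 13th highest of all genes measured. Gpr182, an atypical chemokine receptor, was at 8.91 FPKM in FABP7 KO and 2.72 FPKM in WT macrophages (log2 ratio 1.41). Lyve1, a hyaluronan receptor shared with lymphatic endothelium, fell just short of the size rule at 7.36 FPKM in FABP7 KO and 3.24 FPKM in WT macrophages (0.98), and passed it with a pseudocount of 0.1 (1.16). Its fold without a pseudocount was 2.27. Stab2, the scavenger receptor stabilin-2 and the most abundant gene of the module, was at 118 FPKM in FABP7 KO and 79.9 FPKM in WT macrophages (0.56), a fold of 1.48 with a counting interval of 1.45 to 1.52. Dnase1l3, a secreted DNase, was at 30.9 FPKM in FABP7 KO and 31.5 FPKM in WT macrophages, and its fold of 0.98 had a counting interval of 0.931 to 1.03. The median log2 ratio of the 6 markers was 1.20 and that of the other 30 genes, low ones included, 1.08. With a pseudocount of 0.1 the medians were 1.42 and 1.67, and the median folds without a pseudocount were 2.77 and 3.31, so the order of the sets depended on the pseudocount. With Flt4, Ehd3, Gata4, Bmp2 and Wnt2 counted as sinusoidal, the medians over genes at 1 FPKM or more in a library were 1.41 and 1.08. The share of sinusoidal markers past the size rule was 3 of 6, against 18 of 30.

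Among the 11 receptor genes, 9 were higher by the size rule in FABP7 KO macrophages. With the KO values scaled to the macrophage markers 6 were, since Flt1 (0.90), Eng (0.82) and Ramp2 (0.88) then fell short. All 3 VEGF receptors were among the 9. Kdr (VEGFR2), the main signalling receptor for VEGF-A, was at 14.9 FPKM in FABP7 KO and 4.42 FPKM in WT macrophages, a log2 ratio of 1.55. Flt4 (VEGFR3), the receptor for VEGF-C, was at 8.33 FPKM in FABP7 KO and 2.18 FPKM in WT macrophages (1.55), and Flt1 (VEGFR1), at 3.0 FPKM in FABP7 KO and 0.89 FPKM in WT macrophages (1.08), was measured at 1 FPKM in the KO library alone. The folds of the 3 receptors without a pseudocount were 3.36 for Kdr, 3.82 for Flt4 and 3.37 for Flt1, with overlapping counting intervals (3.09 to 3.66, 3.37 to 4.33 and 2.89 to 3.94). Their ligands were low, with Vegfa, singled out after its values were seen, at 0.19 FPKM in FABP7 KO and 0.35 FPKM in WT macrophages and Vegfb at 2.47 FPKM in FABP7 KO and 3.0 FPKM in WT macrophages. Vegfc, also singled out, went the other way at 0.36 FPKM in FABP7 KO and 0.09 FPKM in WT macrophages. Its fold of 4.0 (counting interval 1.28 to 16.4) rested on about 16 and 4 fragments. Vegfd and Pgf were at 0 in both libraries.

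The angiopoietin system showed the same direction. Tek (TIE2), the angiopoietin receptor, was at 3.69 FPKM in FABP7 KO and 0.99 FPKM in WT macrophages, and its partner Tie1 at 3.65 FPKM in FABP7 KO and 0.69 FPKM in WT macrophages, log2 ratios of 1.24 and 1.46. Ptprb (VE-PTP), the phosphatase that restrains TIE2, was at 11.6 FPKM in FABP7 KO and 3.29 FPKM in WT macrophages (1.55). Robo4, which stabilises vessels, was at 4.11 FPKM in FABP7 KO and 1.12 FPKM in WT macrophages (1.27). Eng, the endoglin co-receptor for BMP9, stood higher in both libraries but with a smaller ratio, at 21.1 FPKM in FABP7 KO and 9.67 FPKM in WT macrophages (1.05). Ramp2 and Calcrl, which together form an adrenomedullin receptor, differed in ratio. Ramp2 was at 3.53 FPKM in FABP7 KO and 1.16 FPKM in WT macrophages (1.07), and Calcrl at 5.54 FPKM in FABP7 KO and 3.49 FPKM in WT macrophages (0.54). Nrp1, a VEGF and semaphorin co-receptor, was level at 42.3 FPKM in FABP7 KO and 42.7 FPKM in WT macrophages, and its fold of 0.992 had a counting interval of 0.960 to 1.02.

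Of the 11 junction, surface and matrix genes, 6 passed the size rule and all 11 had the higher value in FABP7 KO macrophages. Aqp1, the water channel, was at 34.3 FPKM in FABP7 KO and 10.2 FPKM in WT macrophages (log2 ratio 1.65), and Igfbp7, a secreted binding protein of the vessel wall, at 30.8 FPKM in FABP7 KO and 10.4 FPKM in WT macrophages (1.48). Ehd3, an endocytic recycling protein enriched in sinusoidal endothelium, was at 18.9 FPKM in FABP7 KO and 5.78 FPKM in WT macrophages (1.55). Plvap, which forms the diaphragms of fenestrae, was at 14.9 FPKM in FABP7 KO and 4.92 FPKM in WT macrophages (1.42). The tight junction adhesion molecule Esam was at 8.40 FPKM in FABP7 KO and 2.15 FPKM in WT macrophages (1.58). The sialomucin Emcn, at 2.64 FPKM in FABP7 KO and 0.35 FPKM in WT macrophages (1.43), had a fold of 7.54 without a pseudocount (counting interval 5.27 to 11.1), above the intervals of all 5 other genes of this group that passed the rule. Pecam1, the adhesion molecule CD31, was abundant and little changed, at 51.5 FPKM in FABP7 KO and 38.7 FPKM in WT macrophages (0.40). Egfl7, at 6.91 FPKM in FABP7 KO and 5.23 FPKM in WT macrophages (0.34), and Mmrn2, an endothelial matrix protein, at 4.14 FPKM in FABP7 KO and 2.21 FPKM in WT macrophages (0.68), also stayed short of 2-fold. Cldn5, the tight junction claudin of continuous vessels, was at 1.73 FPKM in FABP7 KO and 0.74 FPKM in WT macrophages (0.65). Vwf, the platelet-tethering factor of large vessels, was under 1 FPKM in both libraries, at 0.31 FPKM in FABP7 KO and 0.25 FPKM in WT macrophages, with a counting interval of 0.903 to 1.72 for its fold of 1.24.

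The endothelial transcription factors were low in both libraries, and 2 of the 5, Gata4 and Sox18, passed the size rule. Scaled to the macrophage markers, neither did (0.95 for Gata4 and 0.88 for Sox18). Erg, an ETS factor that maintains endothelial identity, was at 6.98 FPKM in FABP7 KO and 3.73 FPKM in WT macrophages (log2 ratio 0.75). Gata4, which drives the sinusoidal over the continuous type of endothelium in mouse, was at 4.05 FPKM in FABP7 KO and 1.28 FPKM in WT macrophages (1.15). The 3 SoxF factors, which act together in vessel development, had the largest folds of the transcription factors without a pseudocount but few fragments. Sox18 was at 1.58 FPKM in FABP7 KO and 0.27 FPKM in WT macrophages, on about 46 and 8 fragments. Sox17 was at 0.56 FPKM in FABP7 KO and 0.07 FPKM in WT macrophages, on about 48 and 6 fragments. Sox7 was at 0.52 FPKM in FABP7 KO and 0.02 FPKM in WT macrophages, on about 31 and 1 fragments, a fold of 26.0 with a counting interval of 5.14 to 1258. Of the 3, Sox18 alone reached 1 FPKM in a library. The folds were 5.85 for Sox18 (2.68 to 14.0) and 8.0 for Sox17 (3.40 to 22.8), and the 3 intervals overlapped.

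Of the 3 angiocrine ligands, 1, Bmp2, passed the size rule. Bmp2, which endothelium sends to hepatocytes to raise hepcidin, was at 4.65 FPKM in FABP7 KO and 0.95 FPKM in WT macrophages (log2 ratio 1.53). Wnt2, a Wnt ligand of the pericentral sinusoid, was at 1.16 FPKM in FABP7 KO and 0.27 FPKM in WT macrophages (0.77), a fold of 4.30 without a pseudocount (2.18 to 9.10). Rspo3, which amplifies Wnt signals from the central vein, was at 0.54 FPKM in FABP7 KO and 0.32 FPKM in WT macrophages, a fold of 1.69 whose interval of 0.896 to 3.16 includes no difference. Sox17, Sox7, Vwf and Rspo3 were the 4 genes under 1 FPKM in both libraries, and 8 of the 32 others reached it in the FABP7 KO library alone. With a pseudocount of 0.1 in place of 1, 24 of the 32 were higher by the size rule, where 5.22% of all genes were.

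**Figure D2:**
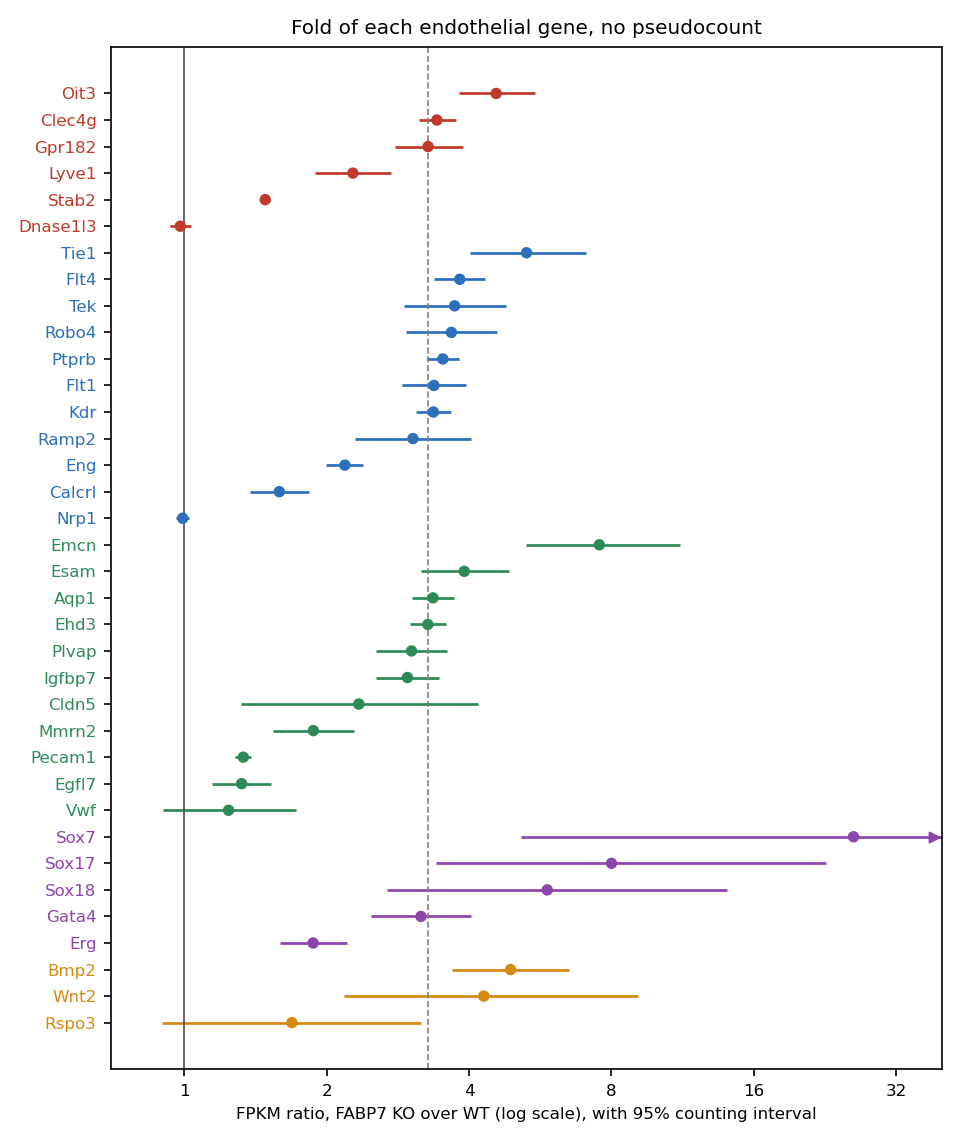
Ratio of FPKM, FABP7 KO over WT, without a pseudocount (points, log axis) for each gene, with the 95% counting interval (lines) and the median of the 36 folds at 3.27 (dashed). Colours give the roles as in the plot of levels, red for sinusoidal markers, blue for receptors, green for junction, surface and matrix genes, purple for transcription factors and orange for angiocrine ligands, and the arrow marks the Sox7 interval, which runs past the axis to 1258.

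The folds of the 36 genes varied around their median. The median fold of the 36 genes without a pseudocount was 3.27, and 14 genes lay between 3-fold and 4-fold. The counting intervals of 17 genes included 3.27, those of 7 lay above it (Oit3, Flt4, Tie1, Emcn, Sox17, Sox7 and Bmp2) and those of 12 lay below it. Among these 12 were the 4 genes with the highest WT levels, Stab2, Nrp1, Pecam1 and Dnase1l3, with folds between 0.98 and 1.48. Their summed level was 243 FPKM in FABP7 KO and 193 FPKM in WT macrophages, a ratio of 1.26, whereas the other 32 genes, a division made after the values were seen, summed to 300.3 FPKM in FABP7 KO and 100.1 FPKM in WT macrophages, a ratio of 3.001. The WT level is the denominator of the fold, so a choice by high WT level in itself leans towards low folds. By mean level of both libraries, Clec4g (31.3 FPKM, fold 3.42) stood beside Dnase1l3 (31.2 FPKM) but fell among the other 32. Ordered by level, the WT library began with Stab2, Nrp1, Pecam1 and Dnase1l3 and the FABP7 KO library with Stab2, Pecam1 and Clec4g. By mean level of both libraries, 1 of the 5 genes at 30 FPKM or more was higher by the size rule (Clec4g), where 0.785% of all genes at that level were. All 4 genes from 10 to 30 FPKM (Eng, Aqp1, Ehd3 and Igfbp7) were, where 1.40% of all genes were, and 15 of the 21 genes from 1 to 10 FPKM were, where 3.35% of all genes were.

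**Figure D3:**
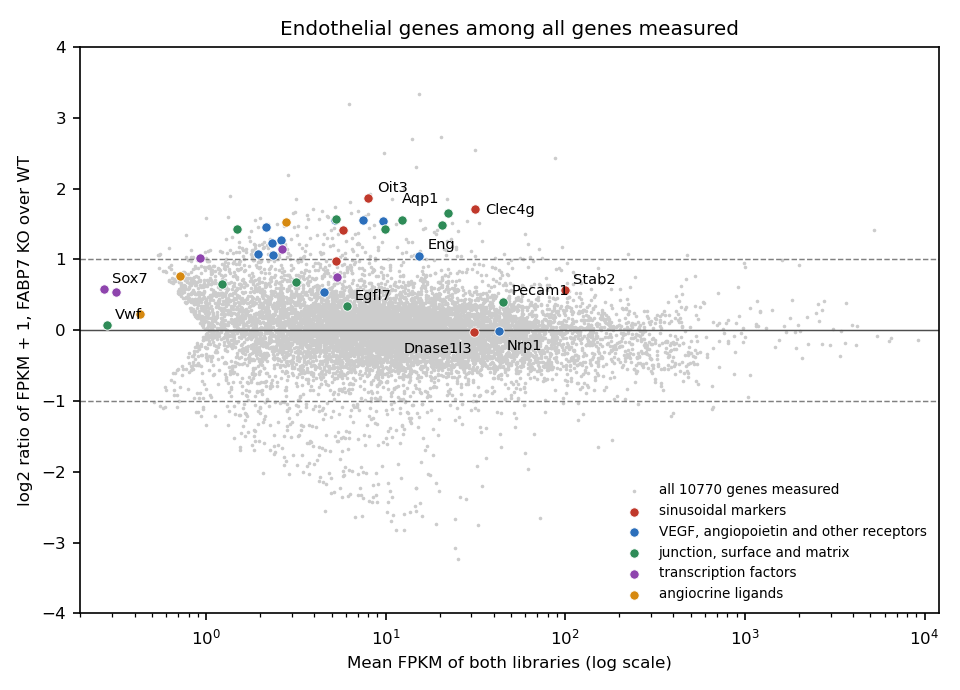
Log2 ratio, FABP7 KO over WT on FPKM + 1, against the mean FPKM of both libraries (log axis) for the 36 genes (colours by role) and all 10770 genes at 1 FPKM or more in a library (grey), with dashed lines at 2-fold. Most genes of the module lie between 1 and 1.9 at a mean of 1 to 30 FPKM, whereas Stab2, Pecam1, Nrp1 and Dnase1l3 lie nearer 0 at higher levels, and Fabp7, at -7.71, is off the scale. Clec4g, at a mean of 31.3 FPKM, has a ratio of 1.70.

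Other endothelial genes were examined through lists kept apart from the module, which give counts and medians over all listed genes, low ones included. The lists share some genes, so their counts are not separate observations. Efnb2, Dll4 and Hey1 are in both the arterial and the portal list. Thbd and Selp are in both the pan-endothelial and the central vein list, and Angpt2 is in both the pan-endothelial and the ligand list. Of 8 further sinusoidal genes, all 8 had the higher value in FABP7 KO macrophages and 3 passed the size rule, with a median log2 ratio of 0.64. These were Cd300lg, a capillary mucin receptor, at 6.56 FPKM in FABP7 KO and 1.31 FPKM in WT macrophages (1.71), Fam167b at 5.12 FPKM in FABP7 KO and 1.75 FPKM in WT macrophages (1.15), and Adam23 at 4.27 FPKM in FABP7 KO and 1.62 FPKM in WT macrophages (1.01). F8, which encodes coagulation factor VIII and is made by sinusoidal endothelium, was at 4.73 FPKM in FABP7 KO and 2.26 FPKM in WT macrophages (0.81). Of 33 further pan-endothelial genes, 29 had the higher value in FABP7 KO macrophages, 6 passed the size rule, none was lower by it, and the median was 0.43. The 4 with the largest ratios were Adgrf5 at 15.1 FPKM in FABP7 KO and 4.97 FPKM in WT macrophages (1.43), Adgrl4 (1.22), Clec14a (1.16) and Arhgef15 (1.13). The list's most abundant genes, which Kupffer cells are also known to express, did not follow them. Cdh5, VE-cadherin, was at 450 FPKM in FABP7 KO and 372 FPKM in WT macrophages (0.27), and Vcam1 at 243 FPKM in FABP7 KO and 393 FPKM in WT macrophages (-0.69).

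Genes that sinusoidal endothelium and Kupffer cells share had a median log2 ratio of 0.32 over 5 genes. The mannose receptor Mrc1 was at 483 FPKM in FABP7 KO and 344 FPKM in WT macrophages (0.49), and the fatty acid receptor Cd36 at 126 FPKM in FABP7 KO and 179 FPKM in WT macrophages (-0.51). Fcgr2b, the inhibitory Fc receptor, which in liver is found mainly on the sinusoidal endothelium, was the one of them that passed the size rule, at 34.3 FPKM in FABP7 KO and 15.01 FPKM in WT macrophages (1.14). Markers of continuous, arterial and lymphatic endothelium were scarce. None of the 13 passed the size rule, but 10 were under 1 FPKM in both libraries and so could not pass it. By direction, 8 of the 13 had the higher value in FABP7 KO macrophages, 2 had the lower one and 3 were at 0 in both libraries (Sema3g, Car4 and Ccl21a). Hey1, a Notch target, was the highest at 4.59 FPKM in FABP7 KO and 2.39 FPKM in WT macrophages (0.72). Genes of both sides of the liver lobule had the higher value in the FABP7 KO library, but 1 of 7 passed the size rule on each side, and 4 central and 2 portal genes were under 1 FPKM in both libraries. The 7 genes of the central vein side had a median of 0.33, with Fabp4, the adipocyte FABP also made by endothelium, at 9.68 FPKM in FABP7 KO and 4.13 FPKM in WT macrophages (1.06), and the 7 genes of the portal side had a median of 0.61, with Ltbp4, a latent TGF-beta binding protein, at 3.45 FPKM in FABP7 KO and 0.94 FPKM in WT macrophages (1.20). Of 12 ligands of the receptors described above, 9 were under 1 FPKM in both libraries, the median log2 ratio was 0 and none was higher or lower by the size rule. Adrenomedullin (Adm) was at 7.68 FPKM in FABP7 KO and 10.4 FPKM in WT macrophages (-0.39), whereas Gdf2 (BMP9), the ligand of endoglin, was at 2.22 FPKM in FABP7 KO and 0.79 FPKM in WT macrophages (0.85), a fold of 2.81 with a counting interval of 1.99 to 4.15.

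Markers of other liver and blood cells also had mostly higher values in the FABP7 KO library. The summed level of 12 stellate cell and fibroblast markers was 63.3 FPKM in FABP7 KO and 23.4 FPKM in WT macrophages, with a median log2 ratio of 0.62, 3 of 12 higher by the size rule and none at 0. For 14 hepatocyte markers the sums were 1186 FPKM in FABP7 KO and 594 FPKM in WT macrophages (0.82, 4 of 14, none at 0). For 10 neutrophil markers they were 103 FPKM in FABP7 KO and 37.4 FPKM in WT macrophages (1.03, 5 of 10, none at 0). For 6 B cell markers they were 37.6 FPKM in FABP7 KO and 13.3 FPKM in WT macrophages (1.04, 3 of 6, none at 0), and for 8 erythroid markers 65.1 FPKM in FABP7 KO and 25.9 FPKM in WT macrophages (0.69, 4 of 8). Single genes led some sums, so a sum does not give the amount of a cell type. Among hepatocyte markers Trf stood at 642 FPKM in FABP7 KO and 306 FPKM in WT macrophages. Among neutrophil markers Csf3r was at 51.3 and 27.3 FPKM, and among stellate cell and fibroblast markers Dcn was at 37.05 and 13.5 FPKM. Platelet markers were near 0 apart from Pf4, at 12.3 FPKM in FABP7 KO and 6.95 FPKM in WT macrophages, and none of the 8 passed the size rule. Median log2 ratios were 0.25 for the 11 pan-macrophage markers and 0.12 for the 7 Kupffer cell markers, and none of either list passed the size rule. The part that carry-over of other cells through the F4/80 selection had in the endothelial values was not tested.

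**Figure D4:**
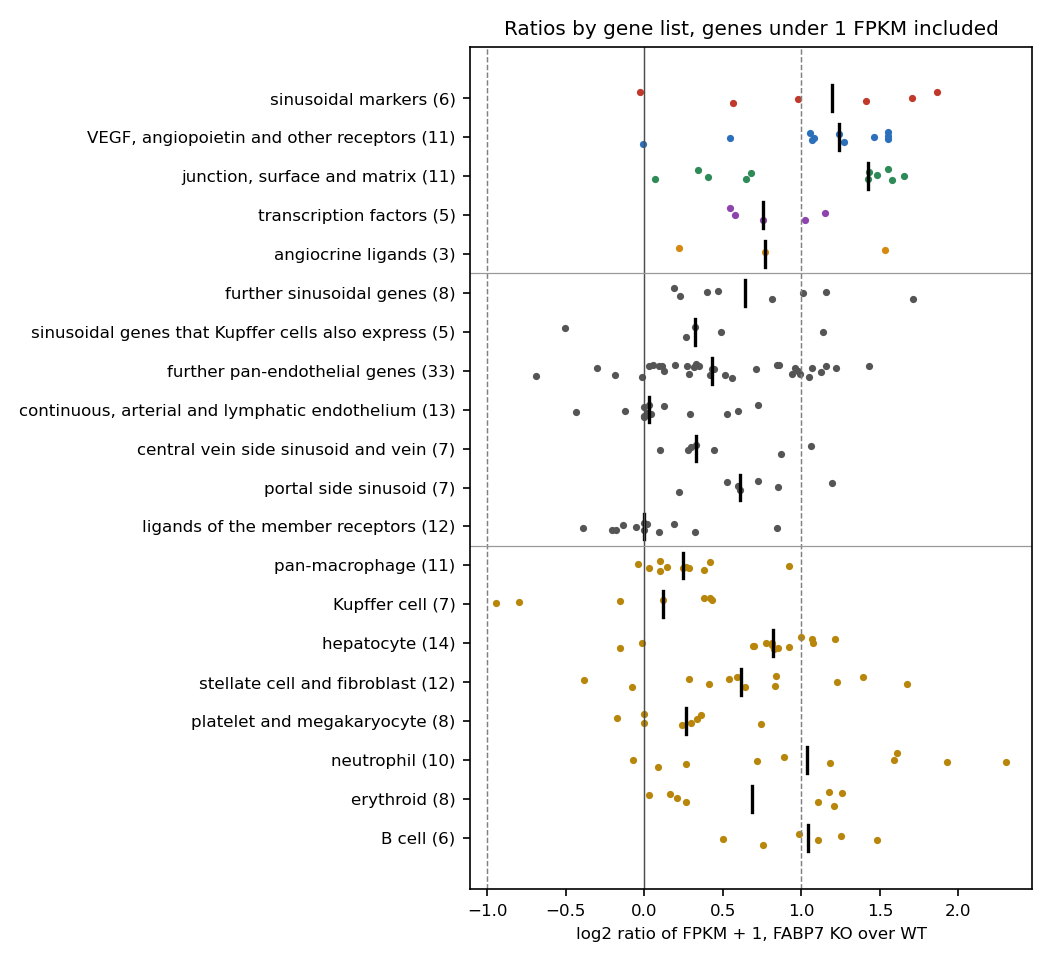
Log2 ratio, FABP7 KO over WT on FPKM + 1, for each gene (points, spread vertically for legibility) of the 5 roles of the module (top), the further endothelial lists (middle) and the cell type markers (bottom), with the number of genes in brackets, the median of each list (black bars) and dashed lines at 2-fold. The medians of the 5 roles lie between 0.75 and 1.42, and those of the pan-macrophage and Kupffer cell markers at 0.25 and 0.12.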

How the data were processed

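mRNA of F4/80-selected liver macrophages was measured in 1 FABP7 KO and 1 WT library, assigned by the sample labels and column names. The authors deposited FPKM values with 2 decimals for 22322 genes and no counts, and both sets of files held equal values. TopHat2 2.1.1 and Bowtie2 2.2.8 are listed in the submitters' processing notes, with the build, annotation and counter not given in the sources used here. Poly(A) RNA was enriched with oligo(dT) beads, and the cDNA was primed at random.

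From the deposited FPKM, log2 ratios were computed with a pseudocount of 1, a floor of 1 FPKM in a library and a size rule of 1. Symbols came from GENCODE M21 by Ensembl ID (55 IDs had none), and where rows shared a symbol the highest was used, which touched no gene of the module. Depth (about 18000000 fragments per library, so that a 2 kb gene at 1 FPKM rests on about 36 fragments) was found from the step of low values of genes with 1 transcript and M21 exon lengths from 300 to 1500 bases. Fragment numbers are approximate where the authors' gene length differs from M21, and values near 0.01 FPKM carry rounding error. Every gene of the module is named, and of the other endothelial lists the genes past the size rule, up to 4 of the largest, and up to 2 with the highest mean, with some left to the plots. The members and lists were chosen with earlier results of these data known. Which erythroid markers were at 0 is not reported here. Alternatives were a pseudocount of 0.1, 2 scalings, other floors, a log2 ratio of 1.5 and other groupings. Python 3.11.15, NumPy 2.4.6, pandas 2.3.3, SciPy 1.17.1 and Matplotlib 3.10.9 were used.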

Additional observations from a re-analysis of the deposited data

How the results depend on the processing

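Over all genes of each set, low ones included, the median log2 ratio on FPKM + 1 was 0.89 for the 36, 0.89 for the 30 other than the sinusoidal markers and 0.98 for the 6 sinusoidal markers when the KO values were scaled to the pan-macrophage markers, short of 1 in each, a combination with no floor chosen after seeing the data. Under the other pseudocount and scaling the median log2 ratio stayed past 1 (1.10 to 1.66 for the 36). Over those at 1 FPKM or more in a library alone, the pan-macrophage scaling gave medians of 1.05 for the module, 1.05 without the sinusoidal markers and 0.98 for these. The number of genes of the module past the size rule was 12 with a floor of 5 FPKM, under which 20 genes were left, and 9 at a log2 ratio of 1.5, all higher. For all genes it was 1006 with a pseudocount of 0.1 and 189 at a log2 ratio of 1.5, against 556. The share of all genes that were higher was 1.78% of 8041 with the floor of 5 FPKM and 0.464% of 10770 at the log2 ratio of 1.5. Scaling on genes of at least 10 FPKM in both libraries turned the ratios of Dnase1l3 (0.0080) and Nrp1 (0.025), both near 0, to the other sign. Of 108 values of single genes under other settings, those 2 changed sign, 4 newly passed the size rule (Lyve1 under both settings that moved it, Cldn5 and Wnt2) and 5 no longer did. A floor of 1 FPKM on the mean of both libraries, chosen after seeing the data, left 20 of 30 genes higher, where 2.16% of all 10465 genes were. No paired analysis was possible because each genotype has 1 library, and for the same reason no library could be left out. Depth limits Sox7, Sox17, Sox18, Wnt2, Cldn5 and Rspo3, which rest on under 20 WT fragments each.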
